A study of Homo sapiens with 34 samples.

Results

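The regions described here carried the histone mark H3K27ac in DLD1 cells both before and after the Wnt pathway was blocked, lay away from every protein-coding gene, and had no RNA polymerase II (Pol II) peak before the block. There were 16489 of them, 21.1% of the 78005 H3K27ac regions of uninduced cells. They were chosen in steps: 66669 regions overlapped a region of the induced list by at least 1 bp, 64166 of these were under 6000 bp wide, 25694 of these touched neither a RefSeq protein-coding gene nor the 1 kb beside its ends, and 16489 of these overlapped no Pol II region of uninduced cells. Presence in both H3K27ac lists and absence from the uninduced Pol II list are therefore properties of the choice. Levels of H3K27ac are given below as a description of the members, and the induced Pol II list was the one readout that the choice did not use.

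DLD1 is a colorectal adenocarcinoma cell line, here engineered so that doxycycline switches on a dominant negative TCF7L2, a blocked version of the main Wnt transcription factor of the gut. Both conditions carry the transgene: uninduced cells had no treatment, and induced cells received 1 µg/mL doxycycline for 24 h. Chromatin immunoprecipitation followed by sequencing (ChIP-seq) was done for H3K27ac and for Pol II, with 2 samples per antibody and condition and 1 input sample per condition, at 40 to 55M single reads of 75 bp per sample. No sample among these received doxycycline without carrying the transgene, so the drug and the transgene cannot be told apart. The deposited peak lists serve both samples of a group, so the replicates could not be compared, no difference below has a replicate check, and no p-value is given.

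The labelled tissue was checked against marker genes. Of 16 epithelial and colon markers, 15 had an uninduced H3K27ac region on the gene or within 1 kb of it (all but PHGR1). It was 12 of 20 genes typical of immune, stromal or endothelial cells and 9 of 20 typical of liver, muscle or neurons. Over all protein-coding genes it was 15114 of 19974, a share below that of the colon markers and above both others. PTPRC, CD3E and PECAM1 had a region, while ALB, TTR, MYOD1 and NEUROD1 had none. The part of other cells in the results was not tested.

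Acetylation of lysine 27 of histone H3 marks active promoters and enhancers. Enhancers can lie far from the gene they act on, and many of them recruit Pol II and are transcribed at a low level. In colon cancer cells β-catenin stays in the nucleus and binds TCF7L2 and its relatives at Wnt target genes, where the dominant negative form takes the place of the full-length protein without binding β-catenin.

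The genome sequence under the members was not used here, so letters could be shown only where a member held a RefSeq promoter window, which runs from 250 bases before to 50 after the start of a transcript (GRCh38.p14). Of 34789 such windows on chromosomes 1 to 22 and X, 154 lay whole inside a member. They belonged to 142 genes and 133 members, 0.807% of all members, and every one of the 154 was annotated as the start of a long non-coding RNA (lncRNA). A set of 6 is printed below, 5′ to 3′ on the strand of the transcript. The first is from the member with the highest H3K27ac fold of those printed. The next pair is from 2 members that lost rank after induction, and the last 3 windows hold the TCF/LEF letters. Not all of the 133 members were open to this choice. Capitals mark the TCF/LEF letters CTTTGAT and the AP-1 letters TGANTCA on either strand (read on the other strand, CTTTGAT is ATCAAAG), and a window all in lower case holds neither.
LOC105375518, chr7:134366520-134366819, plus strand: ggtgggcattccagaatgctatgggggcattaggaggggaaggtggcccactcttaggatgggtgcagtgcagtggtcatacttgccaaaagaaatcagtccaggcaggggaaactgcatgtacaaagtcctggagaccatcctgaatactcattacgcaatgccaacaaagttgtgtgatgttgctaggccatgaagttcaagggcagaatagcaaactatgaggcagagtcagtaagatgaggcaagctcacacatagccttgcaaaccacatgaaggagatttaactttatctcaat
LOC105378291, chr10:47206461-47206760, plus strand: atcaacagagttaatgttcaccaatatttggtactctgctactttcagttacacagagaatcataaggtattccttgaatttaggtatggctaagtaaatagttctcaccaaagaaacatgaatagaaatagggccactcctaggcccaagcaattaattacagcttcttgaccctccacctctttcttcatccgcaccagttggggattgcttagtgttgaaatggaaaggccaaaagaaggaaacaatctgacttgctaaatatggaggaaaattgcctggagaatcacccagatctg
LOC107986449, chr5:130871378-130871677, minus strand: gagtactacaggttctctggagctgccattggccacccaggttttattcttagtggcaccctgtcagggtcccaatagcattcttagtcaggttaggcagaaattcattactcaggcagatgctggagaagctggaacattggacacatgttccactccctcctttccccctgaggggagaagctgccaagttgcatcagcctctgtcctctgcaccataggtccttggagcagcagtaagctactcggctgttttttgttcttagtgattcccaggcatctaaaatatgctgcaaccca
LOC107984777, chr15:89379167-89379466, minus strand: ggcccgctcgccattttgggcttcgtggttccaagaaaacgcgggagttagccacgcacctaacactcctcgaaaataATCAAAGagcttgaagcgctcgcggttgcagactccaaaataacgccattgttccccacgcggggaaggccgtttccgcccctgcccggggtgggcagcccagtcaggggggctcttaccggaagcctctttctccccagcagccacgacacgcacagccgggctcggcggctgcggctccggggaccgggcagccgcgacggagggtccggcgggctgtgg
SMIM2-AS1, chr13:44110299-44110598, plus strand: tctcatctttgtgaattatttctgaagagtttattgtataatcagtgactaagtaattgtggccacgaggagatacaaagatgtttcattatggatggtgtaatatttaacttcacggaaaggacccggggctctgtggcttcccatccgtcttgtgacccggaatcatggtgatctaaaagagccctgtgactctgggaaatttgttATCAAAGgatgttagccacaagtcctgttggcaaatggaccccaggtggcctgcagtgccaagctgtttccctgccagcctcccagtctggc
LOC124902257, chr9:115157144-115157443, plus strand: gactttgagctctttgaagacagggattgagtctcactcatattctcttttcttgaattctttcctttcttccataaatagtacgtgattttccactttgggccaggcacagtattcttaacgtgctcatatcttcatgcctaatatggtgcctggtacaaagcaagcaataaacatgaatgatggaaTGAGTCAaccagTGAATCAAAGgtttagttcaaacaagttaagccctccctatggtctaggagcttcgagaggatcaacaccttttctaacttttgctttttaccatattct
In the window of LOC124902257 the second AP-1 match and the TCF/LEF match share letters and appear as 1 run of capitals. These 6 windows were chosen after the values of their members were seen.

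The member that holds the start of LOC105375518 had an H3K27ac fold of 23.2 without induction and 28.3 with it, and gained an induced Pol II region. The member at LOC105378291, 92.2 kb from GDF10, went from a fold of 10.1 to 3.33. The member at LOC107986449 went from 19.7 to 5.87. These last 2 had the largest drops in rank among members that hold a promoter window, with chromosome 8 left out. LOC107984777 starts in the member (chr15:89377528-89381903) that also holds the start of MIR9-3HG, the host transcript of a miR-9 gene, and its fold was 21.2 without and 21.9 with induction. The member at SMIM2-AS1 had 18.3 and 15.7. The member at LOC124902257, 37.6 kb from TNC, which encodes the matrix protein tenascin-C, had 15.9 and 8.25.

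The TCF/LEF letters stood in 13 of the 154 windows inside members, 8.44% (Wilson 95% interval 5.0 to 13.9). The share was 1.87% of 587 windows inside shared intergenic regions with Pol II, 3.77% of 12065 windows of other non-coding transcripts and 2.64% of all windows. AP-1 letters stood in 32 of the 154, or 20.8% (15.1 to 27.9), against 10.9% with Pol II, 10.2% of other non-coding windows and 7.69% of all. Of the 9 motifs searched on both strands, these 2 were more frequent in the members' windows than in each of the other sets, beyond the counting intervals. The FOXA letters TGTTTAC stood in 9.74% (5.99 to 15.4) against 4.29% of other non-coding windows. The KLF letters CCNCNCCC went the other way, with 32.5% (25.6 to 40.2) against 58.6% in windows with Pol II and 38.7% in other non-coding windows. The HNF4 letters CAAAGTCCA stood in 0 of the 154, which allows up to 2.43%.

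The remaining letters differed less. The letters of GATA factors, AGATAA, were in 17.5% of the members' windows and 14.7% of other non-coding windows. The CDX letters TTTATNG were in 13.0% and 12.8%, the TEAD letters GGAATG in 20.8% and 17.1%, and the ETS letters AGGAAGT in 4.55% and 8.75%. Base composition also differed between the sets of windows. The median GC content was 46.8% inside members, 59.3% inside regions with Pol II, 49.7% in other non-coding windows and 58.7% over all windows. Its part in the letter counts was not tested. A match of letters is not a bound site, and windows of 1 gene or 1 member share sequence.

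A few members also held microRNA genes. In the RefSeq gene table these overlapped 0.0788% of members, fewer than the 0.424% of all shared regions and 0.272% of shared intergenic regions with Pol II. Of the 1558 hairpins in the RefSeq sequence table used here, 13 lay in or touched 10 members, and their 19 mature sequences had 19 distinct seeds, so no seed family was represented more than once. A choice of 6 mature sequences is shown because their members were the strongest of these or belong to well-known families. They are from RefSeq, with the seed (bases 2 to 8) in capitals.
hsa-miR-143-3p: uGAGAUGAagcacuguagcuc
hsa-miR-145-5p: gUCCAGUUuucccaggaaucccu
hsa-miR-100-5p: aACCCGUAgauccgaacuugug
hsa-miR-296-5p: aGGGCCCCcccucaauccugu
hsa-let-7a-5p: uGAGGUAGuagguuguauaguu
hsa-miR-9-5p: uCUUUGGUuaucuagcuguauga
The genes of miR-143 and miR-145, a pair best known from smooth muscle, lay in 1 member of 5521 bp (chr5:149425770-149431290) with a fold of 11.6 without and 8.96 with induction. The member at miR-100 (chr11:122150881-122152910) had 13.4 and 6.88, and the member at let-7a-2, in the same non-coding cluster, had 5.32 and 4.91. The member at miR-296 and miR-298 (chr20:58817382-58820014), 19.7 kb from the imprinted gene GNAS, had 14.2 and 7.96. The member at miR-9-2 (chr5:88666734-88667369) had 5.14 and 6.04. Over all 10 members with a hairpin the fold was lower after induction in 5 and higher in 5. None of the 5 described passed the call for a change of rank defined below.

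The members were weak and narrow for H3K27ac regions. The fold is the authors' enrichment of a peak over its local background, and a region takes the highest fold of its summits. The members' uninduced fold had a median of 4.74 (middle 50% from 3.41 to 7.50, highest 29.2). Shared intergenic regions with Pol II had a median of 12.6 and shared regions at a gene end 19.4, while shared regions inside genes without Pol II were close to the members at 4.99. The median width was 826 bp for members, 928 bp inside genes without Pol II, 1921 bp for intergenic regions with Pol II and 2156 bp at gene ends. A single summit made up 56.5% of members but 25.3% of intergenic regions with Pol II. The −log10 q of the peak was under 5 for 20.7% of members against 4.19% of intergenic regions with Pol II. Low H3K27ac went with the absence of a Pol II peak both between and within genes.

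**Figure D1:**
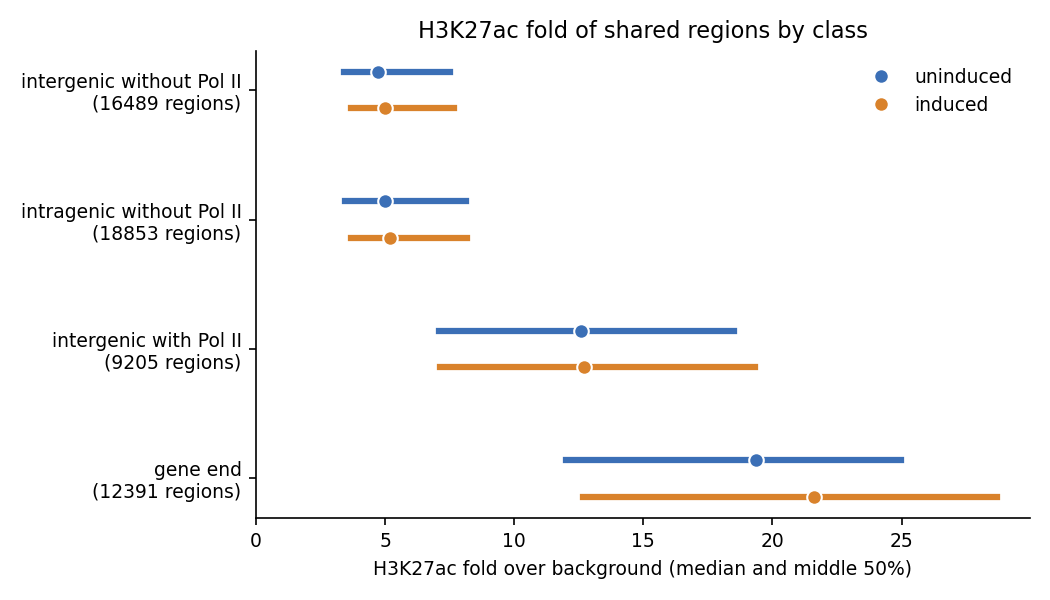
H3K27ac fold over background on the horizontal axis for 4 classes of shared regions under 6000 bp; points are medians and lines the middle 50%, blue for the uninduced and orange for the induced list (induced values only for regions with an induced summit inside). Both classes without Pol II have medians near 5, and both lists give the same order of classes.

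Every member overlaps an induced region by the choice, and most stayed weak in the induced list. Induced regions covered a median of 91.8% of a member's length, and 4918 members (29.8%) were covered whole. Under 50% was covered in 1253 members, 7.599%, against a background of 4.92% of all shared regions. In 525 members (3.18%) the overlapping induced region had its summit outside the member, so 15964 members had a value in both lists. The median induced fold was 5.01, and the median ratio of induced to uninduced fold was 1.04 against 1.05 over all shared regions. The induced fold was the higher one in 54.5% of members and in 56.2% of all shared regions, so by this measure the members did not stand apart.

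Since fold values depend on depth and input, the change of a member was measured by its place, the percentile of its highest fold among the 65290 shared regions with a value in both lists. A place 25 points lower or higher after induction was called a change. The median change of the members was 0.912 points, against 0.234 for all shared regions, and 51.3% of members stayed within 10 points. Lower places were called for 856 members, 5.36% (Wilson 95% interval 5.02 to 5.72, counting error only), beside a background of 3.54% of all shared regions. Higher places were called for 790, 4.95% (4.62 to 5.30), beside a background of 2.63%. For shared regions inside genes without Pol II the shares were 5.19% and 3.42%, and for intergenic regions with Pol II 2.38% and 1.12%. The members thus moved about as often downwards as regions of like strength inside genes, and more often upwards.

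**Figure D2:**
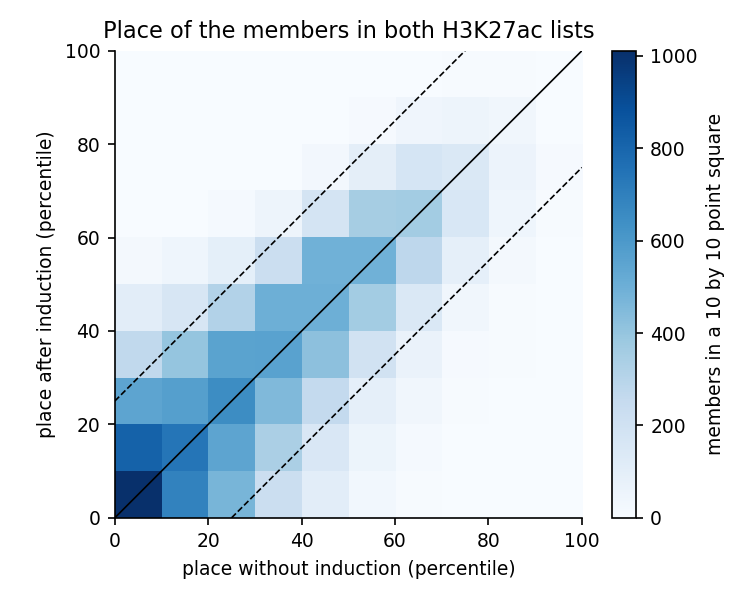
Place of the 15964 members with both values, without induction (horizontal) and after it (vertical), both in percentiles; colour gives the number of members in a square of 10 by 10 points. The solid line is no change and the dashed lines a change of 25 points, beyond which 856 members lie below and 790 above.

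Most members stood low in both lists: 12487 of the 15964, or 78.2%, were in the lowest 50 places without induction. On a percentile scale a low region can mainly rise and a high one mainly fall, so members were also grouped by the mean of both places, a split made after the data were seen. Among the 6734 members with a mean place up to 25, 4.22% were called lower and 5.24% higher. In the band from 25 to 50 it was 7.92% and 6.402% of 5936, and from 50 to 75 it was 3.24% and 1.85% of 3029. Within those bands, regions inside genes without Pol II were called higher in 3.82%, 4.66% and 0.924%. Intergenic regions with Pol II were called higher in 2.36%, 3.27% and 0.476%. In each of these 3 bands the members had the highest share of upward calls of the 3 classes, and their counting intervals did not overlap the others.

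Members called lower and members called higher differed in size and in position. Those called lower had a median fold of 7.68 without and 3.48 with induction, a median width of 1275 bp and a median distance of 75.2 kb to the nearest end of a protein-coding gene. Those called higher went from 3.18 to 6.68, were 577 bp wide and lay 33.0 kb away. Fold and width follow in part from the call, since a fall needs a high start, but distance does not enter it. Induced regions covered a median of 58.0% of a member called lower and 100% of a member called higher. Only induced summits inside a member gave its induced value. With regions at least 50% covered, 581 of 14940 members (3.89%) were called lower and 642 (4.297%) higher. Over all shared regions these shares were then 2.79% and 2.27%. The lower share thus fell more than the higher one, and the part of partial overlap in the remaining calls was not tested.

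Distance to a gene went with the change along its whole range. The median member was 47.2 kb from the nearest protein-coding gene end, against 27.9 kb for intergenic regions with Pol II. Within 10 kb of a gene (2805 members with both values) the median change of place was 2.38 points, with 4.31% called lower and 6.02% called higher. From 10 to 50 kb the median was 1.88 points, from 50 to 100 kb 0.611 and from 100 to 500 kb −0.25. Over 500 kb from any gene (884 members) it was −2.53 points, with 8.60% (6.92 to 10.6) called lower and 2.60% (1.74 to 3.87) called higher. The balance of calls turned over between the nearest and the farthest members, and the intervals at both ends did not overlap.

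Strength moved with distance as well. The median uninduced fold was 4.35 within 10 kb of a gene and 5.07 beyond 500 kb, while the median induced fold was 4.82 at both ends of the range. In mean places this was 29.2 without and 31.3 with induction near genes, and 34.1 and 30.8 far from them. The part of starting strength in the trend was not tested. Intergenic regions with Pol II had a median change of 1.03 points within 10 kb (2549 regions) and −1.13 beyond 500 kb (294 regions). The distance bins were set after earlier results of these data were known.

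**Figure D3:**
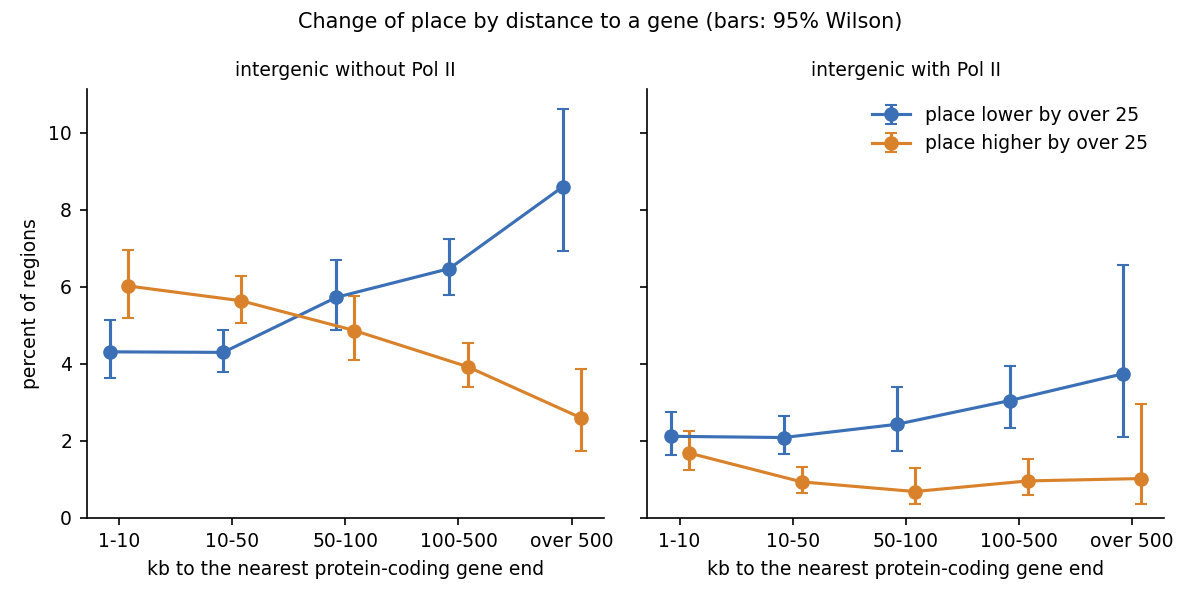
Percent of regions called lower (blue) or higher (orange) in place by over 25 points after induction, by kb to the nearest protein-coding gene end, for the members (left) and shared intergenic regions with Pol II (right); bars are 95% Wilson intervals. In the left panel the blue points climb from 4.31% to 8.60% and the orange points drop from 6.02% to 2.60%.

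The 6 members farthest from a gene lay on chromosomes 22, 1 and 4. The pair at chr22:10650617-10651152 and chr22:10683458-10683994, about 4877 and 4844 kb from OR11H1, had folds of 4.69 and 3.92 without and 3.55 and 2.65 with induction. The pair on chromosome 1 (chr1:123896759-123897185 and chr1:124284972-124285307) had uninduced folds of 3.17 and 2.50. The short arm of chromosome 22 and the centre of chromosome 1 are rich in repeats, where reads are hard to place. The pair on chromosome 4, 2428 and 2427 kb from ARAP2, had 6.45 and 3.79 without induction and 3.55 and 3.75 with it. In all, 166 members were over 1 Mb from a protein-coding gene.

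Induction brought a Pol II region to few members. An induced Pol II region overlapped 397 of the 16489, 2.41% (2.18 to 2.65), beside a background of 2.12% of all 36574 shared regions without uninduced Pol II. The share inside genes was 1.67% (1.49 to 1.86), below that of the members. Of intergenic regions that had Pol II to begin with, 76.4% still met an induced Pol II region. The new Pol II peaks were weak, with a median −log10 q of 3.64 and a median fold of 3.32. An uninduced Pol II region lay within 1 kb of 12.6% of the 397, though not on them, against 4.77% of the other members.

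Members that gained Pol II were the stronger ones, and their H3K27ac place was higher after induction. Their median H3K27ac fold was 8.47 without and 10.7 with induction, against 4.71 and 4.94 for members without a Pol II gain. The median change of place was 8.14 points (393 with both values) against 0.622, and the place was higher in 310 of the 393, or 78.9%, against 52.0% of the others. Only 1 of the 393 was called lower, while 38 (9.67%, 7.13 to 13.0) were called higher, against 4.83% of the others. On the Pol II side the direction is fixed by the choice of members. This split was made after the data were seen, and members that gained Pol II also lay closer to genes, at a median of 25.7 kb against 48.0 kb.

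The member with the strongest induced Pol II (chr9:135476447-135477874, −log10 q 103) lay 1.19 kb from PPP1R26, a regulatory subunit of protein phosphatase 1, and an uninduced Pol II region ended 0.381 kb away. Its H3K27ac fold was 3.56 and 3.90. Next came a member 32.7 kb from ID4, an inhibitor of differentiation, on the lncRNA gene LNC-LBCS, with H3K27ac at 3.38 and 3.26 and uninduced Pol II 0.085 kb away. The third (chr12:75893158-75895259), 130.2 kb from PHLDA1, had 17.5 and 20.1, with uninduced Pol II 0.019 kb away. In these 3 the H3K27ac fold was alike in both lists. The remaining 3 had the higher H3K27ac fold after induction. The member at chr10:101069461-101070066 went from 2.75 to 5.03 and the one at chr10:101070180-101071029 from 2.60 to 9.58, a change of place of 52.5 points, under 1 shared induced Pol II region, with uninduced Pol II 0.565 and 1.28 kb away. The sixth, 1.15 kb from MBLAC1 and 0.118 kb from uninduced Pol II, went from 4.3004 to 8.07.

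The strongest members show what the class can reach. The highest uninduced fold, 29.2, belonged to chr12:22412990-22417786, 30.8 kb from C2CD5, and was 29.1 after induction. A member 43.2 kb from PRAG1 (chr8:8429615-8431016) had 27.6 and 21.7, and one 13.98 kb from KIF26B (chr1:245723408-245726450) had 27.3 and 16.0. A member on the lncRNA gene LINC03109, 180.0 kb from RAP2B, had 27.2 and 9.45. One on LINC02456, 36.7 kb from IGF1, the gene of insulin-like growth factor 1, had 26.8 and 11.5. One 81.2 kb from MACC1, a gene named for its link to metastasis in colon cancer, had 26.6 and 16.5. All 6 had the lower fold after induction, and the RAP2B and IGF1 members passed the call, at −39.3 and −32.5 points. Picking the highest of 1 list favours a fall in the other.

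Picked from the induced side, 3 members stood out, a choice made after the values were seen. A member 7.89 kb from CEACAM5 (chr19:41697629-41700738), which encodes the carcinoembryonic antigen of colon epithelium, had 19.7 without and 37.7 with induction. A member 11.4 kb from ZMIZ2, a β-catenin and androgen receptor co-regulator, had 16.8 and 31.7. The third (chr8:128166209-128170401) lay 423.3 kb beyond MYC, with 18.5 and 31.6. All 3 gained an induced Pol II region, with −log10 q of 3.05, 1.32 and 3.39. Their changes of place, 17.1, 19.96 and 15.9 points, were under the call, from starting places of 81.4, 74.7 and 78.7.

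The largest falls in place were large in fold as well. At chr11:20339826-20343587, 20.1 kb from HTATIP2, the fold went from 24.4 to 4.14 and the place from 90.3 to 21.6. At a member 305.6 kb from TFAP2D it went from 13.3 to 3.24. Members 13.5 kb from C7orf33 and 158.1 kb from NEDD1 went from 11.6 to 2.95 and from 10.4 to 2.62. Another of the 6 largest (chr10:125555650-125561221), 5572 bp with 7 summits, lay 15.3 kb from TEX36 and went from 22.1 to 5.06. Induced regions covered only between 15.5% and 57.4% of these members, against a median of 91.8% over all members. Their induced folds come from summits inside that covered part, and the part of low coverage in these falls was not tested.

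The largest rises started from weak peaks, with an uninduced −log10 q of 3.07 to 8.27, and 4 of the 6 were on chromosome 10. The first (chr10:32197065-32197431, 70.3 kb from EPC1) went from 2.29 to 10.8, and the second (chr10:4776371-4776905), 48.1 kb from AKR1E2, from 2.52 to 10.8. The third is the KAZALD1 member already described. Another (chr10:93138800-93139321), 60.9 kb from CYP26A1, which breaks down retinoic acid, went from 2.96 to 10.3. A member 275.1 kb from TOX went from 3.13 to 11.5, and one 1.32 kb from LRRC1 from 2.60 to 9.31. All 6 were covered whole by induced regions.

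Many members lay within 20 kb of another member. Chained over gaps of at most 20 kb they formed 8620 groups; 4782 members were alone, and 1750 groups of 3 or more held 7531 members, 45.7% (44.9 to 46.4). Groups of 10 or more numbered 43. Other classes of regions were not chained, so whether such grouping is particular to the members was not tested. The largest, 56 members over 187.9 kb (chrX:87327144-87514998), ended 2.80 kb short of KLHL4, and its members ranged from a fold of 2.21 to 23.01 without and from 2.51 to 20.01 with induction. Its median change was −3.38 points, and no member passed the call. KLHL4 had 22 members within 50 kb, more than any other gene. Groups of 48, 32 and 28 members lay beyond DPP10 on chromosome 2 (chr2:116293834-116447957, chr2:115897671-116007387 and chr2:116132820-116266102), with median changes of 1.60, −0.22 and 3.26 points. In the order given, these 4 groups had 0, 1, 1 and 2 called members.

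Of 92 groups with 8 or more members and values in both lists, 63 had a median change above 0. The 2 ends of this range are shown member by member; they were picked for their medians after the values were seen. At the upper end, 9 members spanned 24.9 kb (chr3:24501068-24525920), 5.36 kb beside THRB, a thyroid hormone receptor. Their uninduced folds in order were 4.21, 3.95, 4.95, 2.70, 4.91, 2.39, 2.98, 2.82 and 8.50. The induced folds were 13.2, 6.98, 7.65, 3.74, 11.5, no summit inside for the sixth, 3.05, 7.57 and 18.2. All 8 members with both values had the higher fold after induction, 7 of them also had the higher place, the median change of place was 24.4 points, and 3 were called higher.

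At the lower end, 9 members spanned 43.7 kb (chr1:186762696-186806368) between PTGS2, the cyclooxygenase of inflammation and colon tumours, and PLA2G4A, the phospholipase that releases its substrate arachidonic acid. Their uninduced folds in order were 5.15, 12.7, 3.12, 4.51, 4.71, 8.59, 3.64, 4.56 and 2.82. The induced folds were 3.94, 6.97, 2.87, 3.03, 3.20, 5.99, 2.35, 3.86 and 2.85. The place was lower for all 9, by a median of 13.2 points, though none passed the call, and the fold was lower for 8. The group was picked for its low median, so the direction its members share is a description only.

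**Figure D4:**
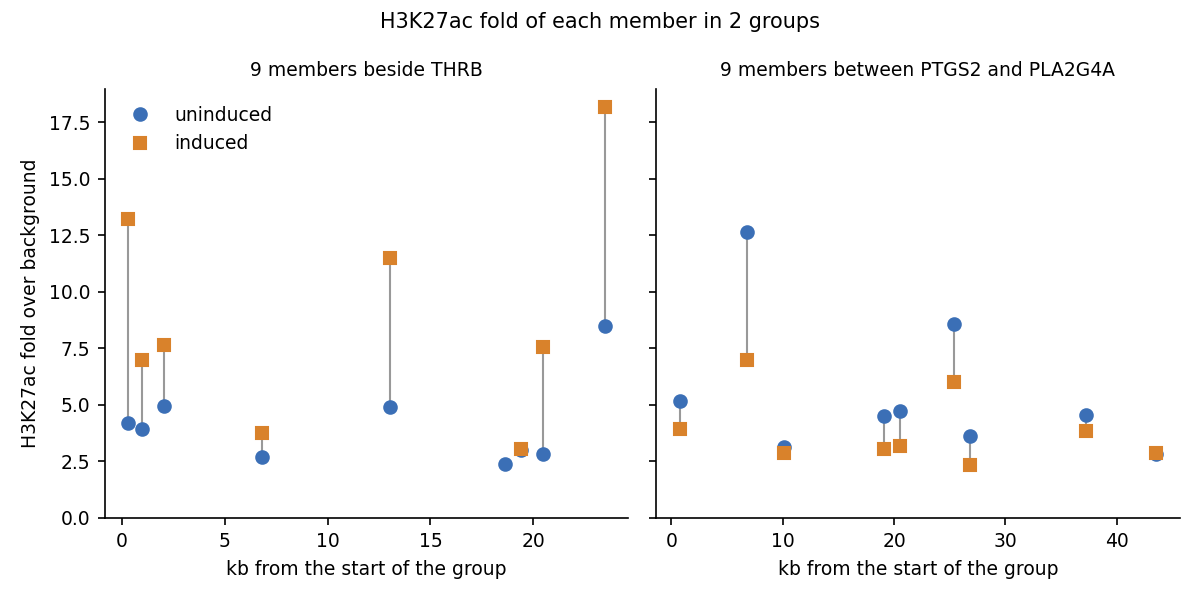
H3K27ac fold over background (vertical) of each of 9 members beside THRB (left) and 9 between PTGS2 and PLA2G4A (right), by kb from the start of the group; blue circles are uninduced, orange squares induced, and a line joins both values of a member. On the left every pair climbs, from as high as 8.50 to 18.2; on the right the blue circle is the upper one in 8 of 9 pairs.

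The groups with the next highest and lowest medians were smaller in effect. The 8 members at chr15:70420814-70460888, between TLE3, a co-repressor that binds TCF factors, and UACA, had a median change of 19.0 points, with 1 called lower and 1 higher. The 8 at chr4:154030323-154088972, between SFRP2, a secreted Wnt inhibitor, and DCHS2, had 17.6 points with 1 called higher. The 10 at chr3:14247928-14280461 between LSM3 and SLC6A6 had −11.6 points with 2 called lower. The 8 at chr4:108310491-108353884 had −9.27 points with 1 called lower.

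Members were more frequent around genes of the colon and of growth signalling than around the average gene. Within 50 kb of an end, 38.3% of all 19974 protein-coding genes had a member. Of Wnt and TCF target genes, 29 of 38 had one, 76.3% (60.8 to 87.0), and of intestinal transcription factors 24 of 30, 80.0% (62.7 to 90.5). Ligands of the EGF receptor and feedback genes of the ERK pathway reached 15 of 18, 83.3% (60.8 to 94.2), and epithelial and colon markers 13 of 16, 81.3% (57.0 to 93.4). Genes of colonocyte differentiation had 25 of 40, 62.5% (47.0 to 75.8). AP-1 genes with 9 of 14, the guanylate cyclase C pathway with 4 of 6 and housekeeping genes with 9 of 20 had intervals that reach down to 38.8%, 30.0% and 25.8%. The immune, stromal and endothelial markers and the liver, muscle and neuron markers had 8 of 20 each, 40.0%, near the share of all genes.

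**Figure D5:**
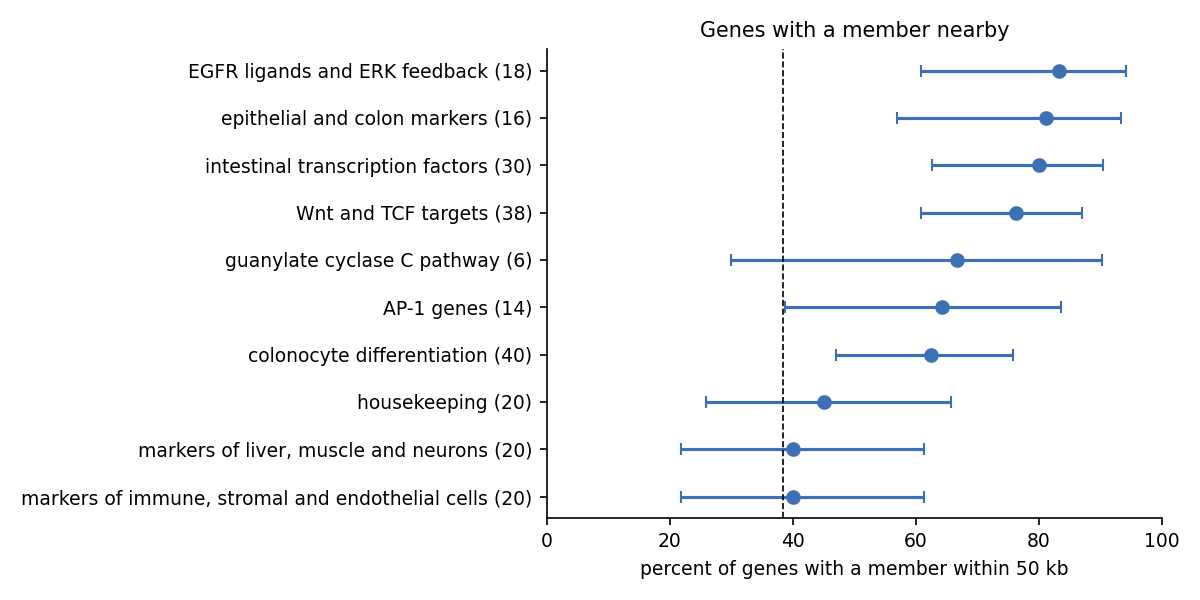
Percent of the genes of each list with a member within 50 kb (horizontal axis), with 95% Wilson intervals; the number of genes is in parentheses and the dashed line marks the 38.3% of all protein-coding genes. Lists of colon, Wnt and growth factor genes lie to the right of the line, and both lists of other tissues lie on it.

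The room for a member differs from gene to gene, since other genes take up part of the 50 kb. Per Mb of such free sequence there were 15.7 members over all genes, 26.2 around Wnt and TCF targets, 36.9 around intestinal transcription factors and 55.3 around EGF receptor and ERK genes. There were 36.1 around genes of the guanylate cyclase C pathway, 34.4 around colonocyte genes and 18.9 around AP-1 genes. Next to these stood 43.0 around epithelial and colon markers, 22.1 around housekeeping genes, 17.8 around immune, stromal and endothelial markers and 10.2 around liver, muscle and neuron markers. EGF receptor and ERK genes, epithelial and colon markers and intestinal transcription factors led on both scales, and both lists of other tissues came last.

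Around Wnt and TCF targets the members leaned down after induction. Of 74 members there, 71 had both values, with a median change of −2.95 points against 2.03 for the 8178 members within 50 kb of any gene. In all, 4 were called lower and none higher, where 352 and 472 of those 8178 were called, so the downward share was close to the members' 5.36% and only the upward side was empty. The 4 were near LEF1 (chr4:108192131-108195581, 23.2 kb away, 11.9 to 3.71), a TCF family factor; near SP5 (46.0 kb away, 6.55 to 3.44), a transcription factor induced by Wnt; near BAMBI (9.69 kb away, 5.78 to 3.33), a decoy receptor of TGF-β; and near TSPAN5 (25.9 kb away, 9.11 to 4.72), a tetraspanin. The SP5 member also lies within 50 kb of GAD1. Members near immune, stromal and endothelial markers leaned further down, with a median change of −5.63 points over 19 members. A downward lean was thus not particular to Wnt and TCF targets.

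Among the Wnt targets with most members, the picture was mixed. DKK1, a secreted Wnt antagonist, had 6, the strongest of which (chr10:52352065-52357365) went from 19.0 to 10.3, a change of −22.1 points, while another 5.25 kb from the gene went from 7.10 to 8.77. SOX9, a factor of crypt base cells, had 6 members, with uninduced folds between 2.26 and 13.4, and 3 of the 5 with both values had the higher place after induction. MYC, the growth regulator, had 4. The one 46.4 kb away had 6.96 and 6.43, and the others had 3.02 and 4.02, 2.91 and 3.79, and 4.14 and 5.11. AXIN2, a negative feedback gene of the pathway, had 3, with 4.60 and 4.94, 3.22 and 2.35, and 6.002 and 5.84. LGR5, the marker of intestinal stem cells, had 3, with 4.66 and 4.53, 5.25 and 7.02, and 4.49 and 5.49. ASCL2, a stem cell factor, had none within 50 kb, the nearest being 54.8 kb away. Around MYC, AXIN2 and LGR5 no change passed the call.

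TCF7L2, the gene whose dominant negative form was induced, had 2 members within 50 kb. They went from 2.81 to 4.94 (chr10:112903837-112904721) and from 2.43 to 4.25 (chr10:112919499-112919789), changes of 24.995 and 21.2 points, the first just under the call. Both were weak peaks without induction, with a −log10 q of 3.06 and 1.69. Their starting places of 5.01 and 1.57 left little room to fall.

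The guanylate cyclase C pathway, named in the title of the series, sets fluid secretion in the gut: the hormones guanylin (GUCA2A) and uroguanylin (GUCA2B) activate the receptor GUCY2C, which acts on the chloride channel CFTR. GUCA2A and GUCA2B shared their single member (chr1:42133572-42134172), 28.5 and 19.2 kb away, with a fold of 5.45 without and 3.44 with induction, a change of −22.5 points. GUCY2C had 8 members. Their uninduced folds lay between 3.08 and 9.43 and their induced folds between 3.25 and 9.49, 6 of 8 had the higher place, and 1 (chr12:14706593-14707029, 9.99 kb away) was called higher, from 3.25 to 6.29. CFTR had 5, of which 4 had the higher place. The one 19.6 kb away (chr7:117688283-117688966) was called higher, from 2.92 to 7.46, and the one 6.81 kb away gained Pol II and went from 9.19 to 13.9. Over all members 52.7% had the higher place and 4.95% were called higher, and the hormone genes rest on 1 region.

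Intestinal transcription factors had 84 members, 83 with both values, and a median change of 4.11 points. KLF4, a factor of goblet cell and colonocyte maturation, had 9, the strongest of which (chr9:107469885-107473248) went from 15.3 to 21.7, and 6 of the 9 had the higher place. PPARG, a nuclear receptor of colonocytes, had 7, all with the higher place, by 1.88 to 18.7 points. KLF6 had 6, all higher, by 3.89 to 15.1 points, and EHF had 8, of which 3 were higher. None of these 4 genes had a member past the call. In the whole list 2 members were called higher and 3 lower, no larger a share than the 4.95% and 5.36% of all members. Among them, a member near HNF4A went from 2.50 to 5.02, one near ONECUT2 from 22.7 to 9.99 and one near GATA6 from 4.92 to 2.60.

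Among the epithelial and colon markers, CDX2, the master regulator of intestinal fate, had 5 members, of which 4 had the higher place, by up to 24.1 points. CDH17, an intestinal cadherin, had 5 with a median change of 0.345 points, ELF3 had 5 with 4.16 and KRT8 had 7 with 4.59. Of this list a member near PHGR1 was called higher (2.51 to 4.93) and one near KRT19 lower (5.05 to 2.78), beside that of HNF4A given above. The whole list had 2 called lower and 2 higher of 34, where all members had 5.36% and 4.95%.

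Colonocyte genes had 62 members with both values and a median change of 1.41 points. CEACAM5 had 7, including the strongest induced member given above and one between it and CEACAM6 (chr19:41740082-41740738) that was called lower, from 4.91 to 2.38. TSPAN8, a tetraspanin of the colon, had 7, of which 6 had the higher place and 1 was called higher (3.16 to 5.52). KRT20, a keratin of differentiated colonocytes, had 7, with changes from −6.45 to 11.8 points. Neighbouring members of 1 gene thus went both ways at CEACAM5. The whole list had 1 called lower and 2 higher of 62, where all members had 5.36% and 4.95%.

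EGF receptor ligands and ERK feedback genes had calls in both directions. EREG and AREG, 2 neighbouring ligand genes, had 12 and 11 members, partly the same ones, with folds no higher than 7.83 without and 8.31 with induction and no call. Members near TGFA, another ligand, were called lower at 2 places (6.14 to 3.22 and 7.96 to 3.004), as was one near DUSP6, a phosphatase of ERK (11.8 to 4.93). Called higher were 2 members near ETV4, an ERK-driven transcription factor (3.06 to 7.49 and 6.29 to 17.7), and members near DUSP5 (2.40 to 5.52), HBEGF (2.43 to 4.60) and SPRED1 (5.06 to 10.3). That made 3 lower and 5 higher of 66, beside 5.36% and 4.95% of all members. IER3 had 9 members and SPRY1 had 6, with no call.

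The other lists had few members. AP-1 genes had 14 with both values, and the only call was a member near FOS, from 3.22 to 6.10; BATF3, MAFK and BATF had 3, 2 and 2 members without a call. Housekeeping genes had 21, with 1 call, near PGK1 (2.63 to 5.29), and none at POLR2A or GUSB. The immune, stromal and endothelial markers had 19, with calls downwards near LUM (16.4 to 7.67) and PECAM1 (6.61 to 3.14). Liver, muscle and neuron markers had 10, with the SP5 member, near GAD1, as the only call. Over all members 5.36% were called lower and 4.95% higher, and counts this small do not set these lists apart. KLHL4 aside, the genes (chosen after the values were seen) with most members of all were FDCSP and ODAM with 16 each, which share members. GCNT1 and ZC3H11B had 15 each, with median changes of −0.22 and 9.37 points.

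A non-coding gene overlapped 5091 members, 30.9% (30.2 to 31.6), beside a background of 22.3% of all shared regions. It was 36.2% for intergenic regions with Pol II and 8.36% for regions inside genes without Pol II, where a second gene would have to overlap the first. Most of the 5091 were on lncRNA genes (4538 members, 27.5%), followed by transcribed and other pseudogenes with 294 and 291 members. On tRNA genes lay 13 members (0.0788%), against 0.243% of all shared regions and 0.967% of intergenic regions with Pol II. The share of members on any non-coding gene was 21.2% within 10 kb of a protein-coding gene, 36.5% between 100 and 500 kb and 31.9% beyond. Among members called lower it was 28.9% and among those called higher 30.4%. The 132 members with a promoter window and both values had a median fold of 8.04 without and 8.08 with induction, with 7 called lower and none higher, beside 5.36% and 4.95% of all members.

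The limits of the choice cut through a continuum. The widest members measured 5969, 5957 and 5940 bp, with folds of 16.3, 20.1 and 9.70, and the narrowest otherwise like regions left out for width measured 6015, 6082 and 6190 bp, with 14.9, 17.1 and 20.5. The members nearest to a gene lay 1.002, 1.006 and 1.008 kb from SLC24A4, GALNT12 and FCAR, with folds of 7.10, 10.0 and 12.0. Regions just within 1 kb, at 0.995 and 0.986 kb from UPK3A and LOC124901868, had 3.80 and 4.74. Pol II was often not far: the nearest uninduced Pol II region lay at a median of 14.4 kb, and 6892 members (41.8%) had one within 10 kb.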

How the data were processed

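Peak lists of H3K27ac and Pol II were used for uninduced and induced DLD1 cells, 4 lists in all; the 24 RNA-seq samples were not used here. MACS2 2.1.1.20160309, deepTools 3.5.0, BWA 0.7.17-r1188 and SAMtools 1.10 are named, with builds hg19 and hg38, per the submitters' processing notes and without a role for each. The build was taken as GRCh38 because regions on chromosome 17 extend to 83228308. In the authors' lists every summit has a fold, which is the ratio of its signal to the local background, and a −log10 q of at least 1.30. Nothing in the sources says how replicates were combined. No column of per-sample values was left out (0).

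Summits on chromosomes 1 to 22 and X were kept (at most 0.603% of a list was left out) and collapsed to regions with their highest fold and −log10 q. Coordinates are 1-based and overlap means 1 bp. The interval functions were checked against bedtools 2.31.1 and tested on simulated data. Genes came from the RefSeq table of GRCh38.p14 (19974 protein-coding and 39124 non-coding genes). A member's induced value was the highest fold of induced summits inside it. Python 3.11.15, pandas 2.3.3, numpy 2.4.6 and scipy 1.17.1 were used. Read totals per list are unknown beyond the range in the labels, and Wilson intervals cover counting error only.

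The members and gene lists were chosen with earlier results of these data known. The regions named were the 6 with the highest uninduced fold, the largest fall, the largest rise, the greatest distance and the strongest induced Pol II, the 5 largest groups and those nearest each limit; the genes named were those nearest to them, up to 4 per list with most members within 50 kb, and 8 genes in any case. Members past the call in a list, promoter windows and groups ranked by change were added after the data were seen. Of the 40 Wnt symbols 38 matched. The search for motifs near summits needs a genome and was not run. Some regions and genes that these rules name are not reported here.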

Additional observations from a re-analysis of the deposited data

How the results depend on the processing

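All values rest on 4 lists with no replicate spread, and most members are weak, so fold values near the lists' threshold carry the largest counting error. No paired analysis was possible because the 2 samples of a group have a single list between them, which also leaves no list without one replicate. The search for the TCF motif near summits, with its 500 bp alternative, was not run. Of 72 alternative values 43 stayed within the counting interval of the reported value (counts within 1.5 times) and 29 moved. A reversal of sign could be scored only for the median changes of place chosen after seeing the data, and none of those reversed. The number of members ran from 11465 to 18125. With regions at least 50% covered, 3.89% of members were called lower and 4.297% higher, the covered median was 93.6% and 43.6% lay in groups of 3 or more. With place by −log10 q the calls were 4.25% lower and 3.53% higher, with the induced value of whole overlapping regions 6.45% and 8.33%, and with a call at 10 points 22.97% and 25.7%. In the same order, the shares over all shared regions were 2.79%, 2.53%, 4.36% and 19.1% lower and 2.27%, 1.64%, 5.14% and 19.9% higher, below the members' in each. The balance of the calls changed: higher calls outnumbered lower ones with 50% coverage, whole regions and 10 points. The share with an induced Pol II region was 3.09% with both H3K27ac lists at a −log10 q of at least 5, 5.14% with the uninduced Pol II list at 5 and 0.582% with the induced one. It was 2.79% where Pol II within 1 kb counted as overlapping, 2.14% with 5 kb beside genes and 3.003% with lists of equal length. Over all shared regions without uninduced Pol II these 6 shares were 2.68%, 4.77%, 0.503%, 2.47%, 2.12% and 2.74%, so with 5 kb beside genes the members were at the background. The covered median was 93.7% with H3K27ac at 5. The median distance was 50.2 kb with H3K27ac at 5, 48.9 kb with Pol II within 1 kb and 56.9 kb with 5 kb beside genes, and 32.0% were then on non-coding genes. Groups of 3 or more held 33.8% with H3K27ac at 5, 48.0% with the uninduced Pol II list at 5, 44.4% with Pol II within 1 kb and 31.2% with gaps of 10 kb. Among alternatives chosen after seeing the data, with whole regions the median change was 1.25 points within 10 kb of a gene, −4.41 beyond 500 kb and 6.39 with a Pol II gain, where all shared regions had −1.05; the Pol II gain gave 6.81 with place by −log10 q.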
